A study of Rattus norvegicus with 9 samples.

Results

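The cGMP pathway was followed through 4 genes, GUCY1A1, GUCY1B1, PRKG1 and NPPA, which were chosen by their symbols as the target of vericiguat, the kinase below it and the natriuretic peptide arm. They are 4 of the 22512 entries in the expression table. The rule that chose them uses no measured value, although it was set with earlier results of these data known. Cultured cardiac fibroblasts (CFs) labelled as neonatal rat cells of an early passage were profiled by RNA sequencing in 9 libraries. The blank group (3 libraries) had no drug. The AngII group (3 libraries) received 0.1 µM angiotensin II, a peptide hormone used to activate fibroblasts, for 72 h. The vericiguat + AngII treatment group (3 libraries) received 1.0 µM vericiguat for 24 h and then the same AngII treatment. All 3 groups were CFs in culture, and the labels name no genetic change in any of them. The sources used here do not say whether replicates came from separate cultures or animals, so the p-values measure only the spread between these libraries, which may be technical.

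Soluble guanylate cyclase is a heterodimer of an alpha subunit, here encoded by GUCY1A1, and the beta subunit encoded by GUCY1B1, which carries the haem that binds nitric oxide. Vericiguat is a stimulator of this enzyme, which turns GTP into the second messenger cGMP. Cyclic GMP activates the protein kinase encoded by PRKG1, and it is also made by membrane guanylate cyclases that bind natriuretic peptides such as the one encoded by NPPA, a product mainly of atrial cardiomyocytes.

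The rat promoter windows of the subunit genes are shown because both genes are needed for 1 enzyme and both transcripts were called higher with vericiguat + AngII here, and that of Nppa because its transcript stayed at the detection limit. Each window runs from 250 bases before to 50 bases after the annotated start in RefSeq on the rat build GRCr8, is read on the gene's own strand, and lies at chr2:169779574-169779873 (minus strand) for Gucy1a1, chr2:169696938-169697237 (minus strand) for Gucy1b1 and chr5:163711934-163712233 (plus strand) for Nppa. Capitals mark matches, searched on both strands, to the letters CCAAT (the box known by them), GGGCGG (known as the GC box), TATAAA (known as the TATA box) and TGACG (the core of the cAMP response element).
Gucy1a1: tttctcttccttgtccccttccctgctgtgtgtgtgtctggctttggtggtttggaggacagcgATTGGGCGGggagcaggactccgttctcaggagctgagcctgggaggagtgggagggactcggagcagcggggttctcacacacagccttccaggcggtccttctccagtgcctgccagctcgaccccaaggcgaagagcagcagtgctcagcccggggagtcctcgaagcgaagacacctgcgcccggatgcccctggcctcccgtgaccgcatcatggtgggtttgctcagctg
Gucy1b1: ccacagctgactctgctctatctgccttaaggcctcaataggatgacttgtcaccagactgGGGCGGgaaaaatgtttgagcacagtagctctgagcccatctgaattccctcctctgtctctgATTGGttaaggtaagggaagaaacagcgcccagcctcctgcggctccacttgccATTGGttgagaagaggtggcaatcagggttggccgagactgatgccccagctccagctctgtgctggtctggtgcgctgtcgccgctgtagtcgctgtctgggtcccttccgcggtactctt
Nppa: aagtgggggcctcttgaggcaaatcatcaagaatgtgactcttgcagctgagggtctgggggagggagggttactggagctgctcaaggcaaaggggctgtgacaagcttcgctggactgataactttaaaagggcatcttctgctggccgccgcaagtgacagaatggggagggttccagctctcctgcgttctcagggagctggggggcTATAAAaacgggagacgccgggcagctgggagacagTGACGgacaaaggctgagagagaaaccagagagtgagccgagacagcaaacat

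In the Gucy1a1 window a CCAAT box on the opposite strand (first base at position -186, with the annotated start as 0) overlapped a GC box (position -183). The Gucy1b1 window held CCAAT boxes on the opposite strand at positions -126 and -72 and a GC box at -189. Neither subunit window held TATAAA, whereas the Nppa window held it at -39, with TGACG at -3. Of 33469 rat promoter windows of the same length, 37.49% held a CCAAT box, 33.06% a GC box, 14.22% TATAAA and 21.2% TGACG, so none of these matches was rare. The Prkg1 window, on chromosome 1, matched none of the 4 motifs. GC content was 63.7% in the Gucy1a1 window and 56.3% in those of Gucy1b1 and Nppa, against a median of 51.7% over all windows. Gucy1a1 and Gucy1b1 are neighbouring coding genes on rat chromosome 2 in this annotation. These letters describe the rat reference only, since the expression values were made with another build, given next.

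The values are FPKM, a fragment count corrected for transcript length and library depth. The submitters' processing notes name the build OryCun2.0, a rabbit assembly, although the organism label is rat, and 147 entries carry names that start with ORYCUN. The part of this in the member values was not tested. In every library 13 entries named KEF51 held a large share of the summed FPKM, namely 96.7-97.9% in the blank and AngII groups and 45.3-52.3% in the vericiguat + AngII group. Entries other than KEF51 above 0 numbered 5498-9310, 9902-10425 and 16445-16751 in the blank, AngII and vericiguat + AngII groups. The deepest library held an estimated 1.67 times as many fragments per FPKM as the shallowest. Because of the KEF51 difference each value was also divided by its library's sum over the other entries, scaled to 1000000, and this is called the relative level. The third blank library lay between the other blank libraries for 292 of 296 genes (98.6%) with at least 5 FPKM in a blank library, against 18.6-46.1% for each AngII or vericiguat + AngII library within its own group. Results were therefore also computed without it.

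The labelled cell type was checked against marker genes listed by symbol. Since 20346 of the 22512 entries carry a LOC number instead, a gene not listed by symbol may be present under such a name. Of 14 fibroblast markers 5 were listed (COL1A2, DCN, LUM, FN1 and MMP2), and their summed FPKM was 1.85-25.7, 8.34-26.3 and 385-548 in the blank, AngII and vericiguat + AngII groups. Of 14 cardiomyocyte markers 5 were listed (MYH6, MYH7, TTN, RYR2 and PLN), and their sums were 6.80-9.06, 45.0-109 and 3812-6077 FPKM in the same order. The cardiomyocyte sum exceeded the fibroblast sum in every AngII and every vericiguat + AngII library and in the second blank library. Endothelial markers (2 of 7 listed) summed to 0.054-0.398, 0.083-0.421 and 81.3-86.2 FPKM. Smooth muscle and pericyte markers (3 of 8 listed) summed to 0.92-25.2, 4.70-6.85 and 428-731 FPKM. The macrophage marker CD14 was at 0.151-1.14, 0-0.202 and 5.16-8.56 FPKM, and red blood cell markers (2 of 6 listed) summed to 154-398, 204-310 and 8364-15127 FPKM. No blank library held KDR above 0, and ACTA2, FN1 and CD14 were each at 0 in 1 AngII library. In FPKM all 6 lists were thus higher in every vericiguat + AngII library than in any blank or AngII library, as 3 of the 4 members were. In relative level the sums of 5 of the 6 lists still separated, and the macrophage marker did not, with CD14 at 36.7 in the first blank library and at most 19.7 with vericiguat + AngII. Single markers inside those 5 lists overlapped, namely COL1A2, LUM, FN1, MYH6 and MYH11. COL1A2 was at 112 in the first AngII library and 30.1-37.8 with vericiguat + AngII. DCN and MMP2 separated, but none of the 5 fibroblast markers was called against AngII in relative level by limma, as described below. Their part in the member values was not tested. In bulk libraries such as these, fewer cells of a type and less RNA per cell cannot be told apart.

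Both subunits of the cyclase were near the detection limit in the blank and AngII groups and clearly present in the vericiguat + AngII group. GUCY1A1 was at 0.11, 0.063 and 0.05 FPKM in blank replicates 1 to 3, at 0.232, 0.079 and 0.051 FPKM in the AngII replicates, and at 13.7, 10.5 and 11.6 FPKM in the vericiguat + AngII replicates. GUCY1B1 was at 0.138, 0.06 and 0.094 FPKM, then 0.199, 0.1 and 0.048 FPKM, and then 14.5, 10.5 and 13.3 FPKM in the same order. For both subunits every vericiguat + AngII library lay above every other library, while the blank and AngII libraries overlapped. Group means of GUCY1A1 were 0.0743 ± 0.0316, 0.121 ± 0.0974 and 11.9 ± 1.62 FPKM (SD, n = 3 each), and those of GUCY1B1 were 0.0973 ± 0.0391, 0.116 ± 0.0767 and 12.8 ± 2.05 FPKM.

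The depth behind these values was estimated from the low values themselves, which came close to whole multiples of what 1 fragment was worth in a library. The estimate holds up to a common multiple, and 691 of 1232 entries with low values (56.1%) gave whole numbers in all 6 blank and AngII libraries within a tolerance of 0.05. On this estimate GUCY1A1 rested on 13 fragments over the 3 blank libraries (exact Poisson 95% interval 6.92-22.2), on 16 in the AngII group (9.15-26.0) and on 1535 in the vericiguat + AngII group (1459-1614). GUCY1B1 rested on 9 (4.12-17.1), 8 (3.45-15.8) and 869 (812-929) fragments. All such intervals cover counting error only. The blank and AngII values of single libraries, from 1 to 11 fragments for either subunit, therefore allow no fine comparison.

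**Figure D1:**
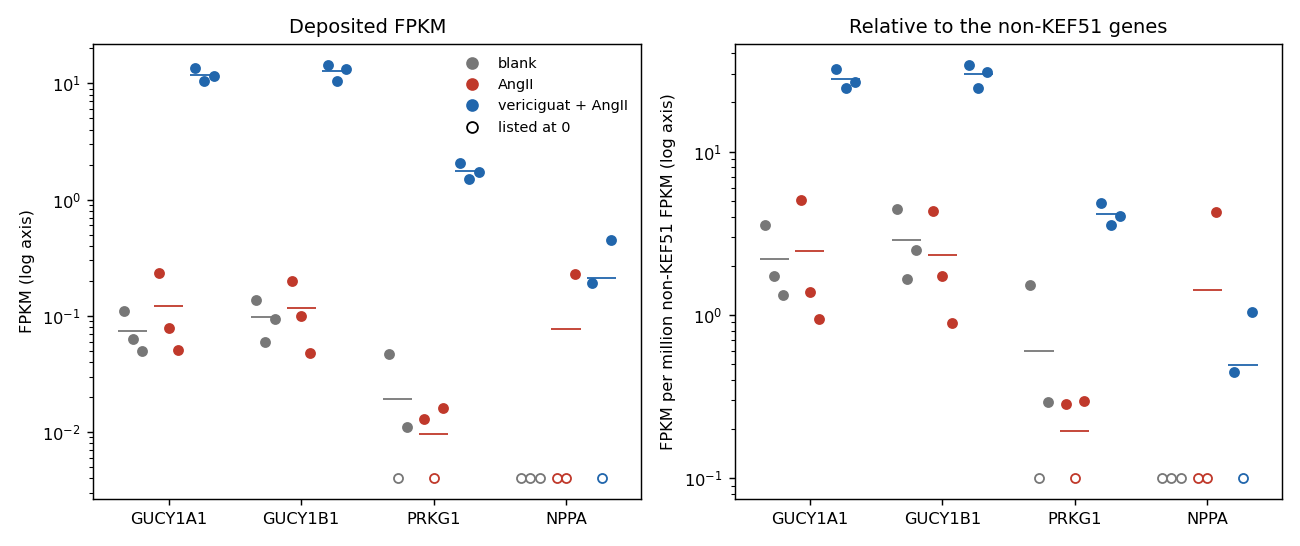
FPKM (left) and relative level, FPKM per 1000000 of summed FPKM of the entries other than KEF51 (right), of GUCY1A1, GUCY1B1, PRKG1 and NPPA in each of the 9 libraries, on log axes. Points are libraries, lines are group means (n = 3) and open points at the bottom are libraries listed at 0. GUCY1A1, GUCY1B1 and PRKG1 lie higher in the 3 vericiguat + AngII libraries than elsewhere on both scales, and NPPA overlaps between groups.

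Measured against the other genes of its library, the cyclase rose less than the FPKM show. The relative level of GUCY1A1 was 3.55, 1.74 and 1.33 in the blank replicates, 5.07, 1.37 and 0.946 in the AngII replicates and 32.0, 24.4 and 26.8 in the vericiguat + AngII replicates. That of GUCY1B1 was 4.45, 1.66 and 2.49, then 4.35, 1.74 and 0.89, and then 34.0, 24.5 and 30.6. The vericiguat + AngII libraries again lay above all others. From the pooled fragments, GUCY1A1 was 93.1-fold higher in FPKM (95% interval of counting error 57.2-163) and 11.3-fold higher in relative level (6.91-19.7) with vericiguat + AngII than with AngII alone. For GUCY1B1 these ratios were 106 (53.3-245) and 12.7 (6.44-29.6).

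Across the 10895 entries other than KEF51 that passed a filter of at least 1 FPKM in at least 3 libraries, limma's moderated test was run on log2(relative level + 1), and a gene was called at a Benjamini-Hochberg adjusted p below 0.05 with a log2 fold change of at least 1 in size. On this scale a fold change understates the change of low genes. GUCY1A1 was 3.23 (SE 0.612) higher on the log2 scale with vericiguat + AngII than with AngII (limma adjusted p = 0.00102), and GUCY1B1 was 3.33 (SE 0.602) higher (limma adjusted p = 0.000775). Against the blank group the differences were 3.22 for GUCY1A1 (limma adjusted p = 0.000706) and 3.04 for GUCY1B1 (limma adjusted p = 0.000917). Both treated comparisons use the same vericiguat + AngII libraries.

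The filter bears on these calls. GUCY1A1, GUCY1B1 and PRKG1 were below 1 FPKM in every blank and AngII library and passed it only through the vericiguat + AngII libraries, as did 8383 of the 10908 entries that passed (76.9%), so among the entries kept by it the direction of the treated comparisons was largely set. NPPA did not pass. The fit was therefore also made with no filter, over all 4 members and every entry above 0 in at least 1 library. These were 18268 entries on the relative scale and 18281 on the FPKM scale. On the relative scale 3 of the 4 members were then called higher with vericiguat + AngII than with AngII, with limma adjusted p-values of 0.00128 for GUCY1A1, 0.000901 for GUCY1B1 and 0.00151 for PRKG1, and NPPA was not called (log2 difference -0.28, limma adjusted p = 0.677). Against blank the same 3 of 4 were called, and NPPA was not (log2 difference 0.52, limma adjusted p = 0.453).

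A large share of the table moved as well. With no filter 48.9% of the entries above 0 in at least 1 library were called against AngII and 52.6% against blank on the relative scale. On the deposited FPKM these shares were 61.5% and 61.6%, and nearly all the entries called were higher with vericiguat + AngII. Among the entries kept by the filter these shares were 77% and 79.2% on the relative scale and 99.6% and 99.4% on the FPKM scale. The median log2 difference of the entries tested on the relative scale was 1.52 against AngII and 1.63 against blank with no filter, and 2.26 and 2.52 with it. GUCY1A1 and GUCY1B1 exceeded all 4 of these medians, with GUCY1A1 0.98 and GUCY1B1 1.07 above the filtered one against AngII and 0.70 and 0.52 above it against blank.

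The size of the change differed between the ways of bringing the libraries to a common scale. The same amount was added to the values before the log2 on every scale, and it weighs more where the values are smaller. Its part in the smaller differences and in the lost calls below was not tested apart from that of the scaling. When libraries were scaled by the median of their gene ratios, the log2 difference from AngII was 0.43 (SE 0.229) for GUCY1A1 and 0.49 (SE 0.204) for GUCY1B1, and under quantile normalization it was 0.42 and 0.47, with limma adjusted p-values from 0.14 to 0.392. Neither subunit was called under these scalings in any of the 3 comparisons. Of the entries kept by the filter, 440 were called against AngII after median-ratio scaling, 253 of them higher, and 383 after quantile normalization, 309 of them higher. On the relative scale 8390 were called, 8379 of them higher.

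**Figure D2:**
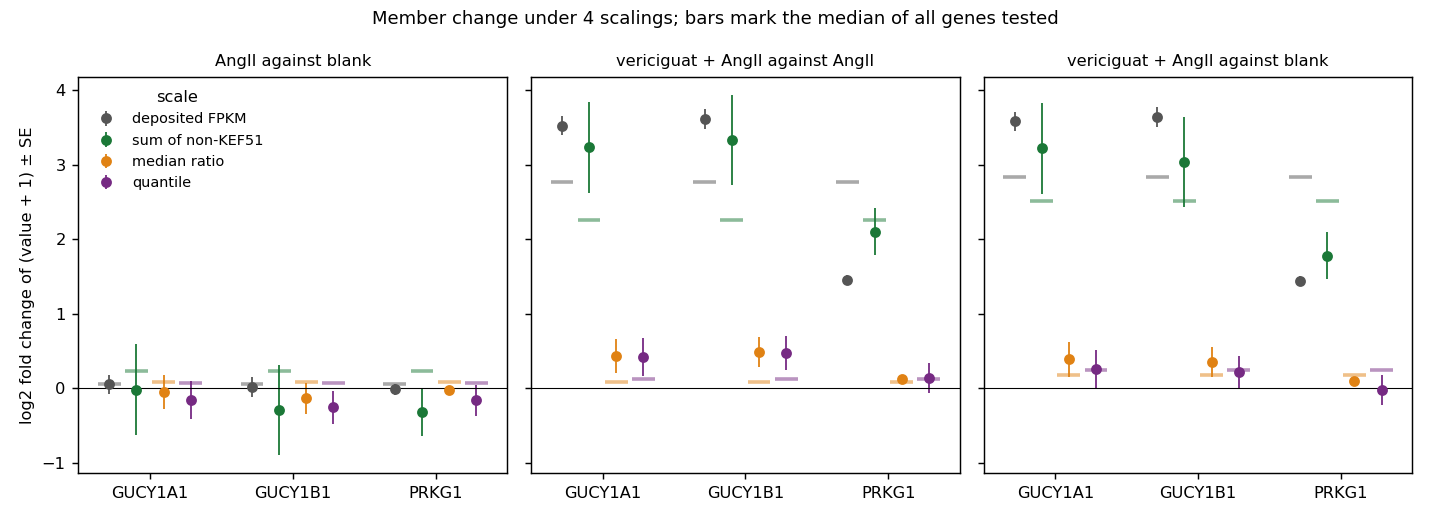
Log2 fold change of (value + 1) with its standard error from limma for GUCY1A1, GUCY1B1 and PRKG1 in the 3 comparisons (panels), on the deposited FPKM, the relative level, and after median-ratio or quantile scaling (colours). Short bars mark the median of the entries kept by the filter on the same scale. The points with vericiguat + AngII lie between 1.44 and 3.64 on the first 2 scales and at or below 0.49 on the other 2, as those medians fall too.

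AngII alone gave no detectable difference of the subunits from the blank group. GUCY1A1 differed by -0.02 (SE 0.612, limma adjusted p = 1) and GUCY1B1 by -0.29 (SE 0.602, limma adjusted p = 0.826) on the log2 relative scale. Without the first blank library the GUCY1A1 difference was 0.27, and without the first AngII library it was -0.01 on the log2 FPKM scale in place of 0.06, so its sign carries no information. Between these groups 6.42% of the entries kept by the filter were called on the relative scale and 1.55% on the FPKM scale, and none of the 3 members tested was, with limma or with the exact permutation test over libraries (p from 0.6 to 1, where 3 libraries against 3 cannot go below 0.1). Their unadjusted limma p lay between 0.324 and 0.979 on the relative scale and between 0.658 and 0.872 on the FPKM scale. From the pooled fragments the ratio of AngII to blank in relative level was 1.20 (95% interval 0.539-2.70) for GUCY1A1 and 0.863 (0.29-2.52) for GUCY1B1, so a change smaller than these bounds could not be seen at this depth.

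Over all 3 groups at once, an exact permutation test of the between-group spread gave p = 0.0357 for GUCY1A1 and p = 0.025 for GUCY1B1 on the relative scale, and p = 0.0214 and 0.0286 on the FPKM scale (smallest possible 0.00357). The level of each gene was also expressed as its percentile among the entries other than KEF51 in its own library, with ties at their midpoint. GUCY1A1 stood at percentiles 69.8-86.9, 64.4-83.2 and 82.1-84.5 in the blank, AngII and vericiguat + AngII groups. GUCY1B1 stood at 73.9-86.5, 63.9-81.4 and 82.2-85.8. By this rank, with entries at 0 included, the groups overlapped for GUCY1A1 (exact permutation p = 0.282), and for GUCY1B1 the blank group overlapped both others (exact permutation p = 0.129). The percentile of a gene with few fragments moves with the number of entries at 0, which differed between libraries as given above. Among the entries above 0 alone, GUCY1A1 stood at percentiles 23.7-46.2, 19.2-63.8 and 75.6-79.1 in the same group order. GUCY1B1 stood at 36.9-44.7, 18.0-59.8 and 75.6-80.6. By this second rank every vericiguat + AngII library lay above all others for both subunits. No test was run on it, and it moves with the number of entries above 0.

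**Figure D3:**
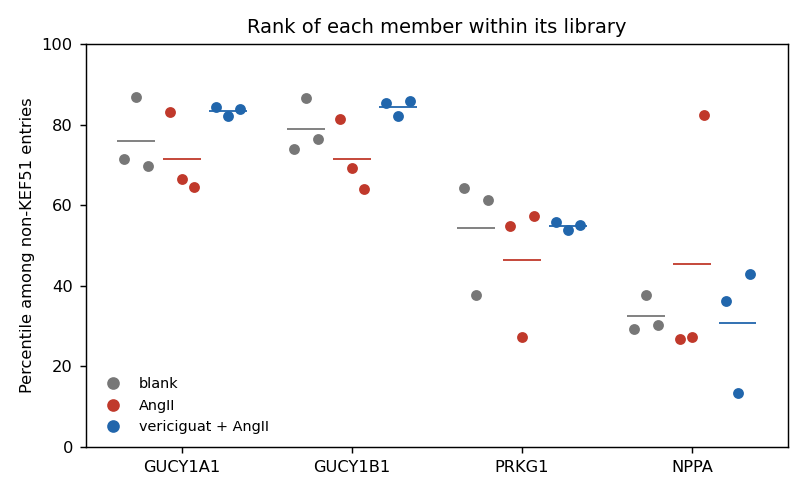
Percentile of each of the 4 members among the entries other than KEF51 in the same library. Points are libraries and lines are group means (n = 3). Both subunits stand above percentile 82 in all 3 vericiguat + AngII libraries, inside the range reached by the blank libraries, and PRKG1 stands between 53.9 and 55.9 there.

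In the vericiguat + AngII group, where the subunits could be counted well, their FPKM were close to equal. The ratio of GUCY1A1 to GUCY1B1 FPKM was 0.797, 1.05 and 0.532 in the blank replicates, 1.17, 0.79 and 1.06 in the AngII replicates and 0.942, 0.996 and 0.876 in the vericiguat + AngII replicates. With counting error from the estimated fragments, the 95% intervals (from the exact Clopper-Pearson interval of a share) were 0.826-1.08, 0.849-1.17 and 0.752-1.02 in the vericiguat + AngII group, and each includes a ratio of 1. In the other 2 groups they ran from 0.188-3.83 to 0.0551-62.5, too wide to place the ratio. As a share of the subunit sum GUCY1A1 made up 43.4 ± 8.29% (blank), 49.8 ± 5.06% (AngII) and 48.4 ± 1.61% (vericiguat + AngII) (SD, n = 3).

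The log2 ratio of the subunits, with 0.1 added to each FPKM, was -0.18 ± 0.20, 0.01 ± 0.16 and -0.09 ± 0.09 in the 3 groups (SD, n = 3). It did not differ between them by an exact permutation test over the libraries (p = 0.382). Vericiguat + AngII differed from AngII by -0.10 (exact permutation p = 0.4) and from blank by 0.08 (exact permutation p = 0.7), and AngII differed from blank by 0.18 (exact permutation p = 0.2). The amount added weighs on this ratio where both FPKM are of its size, as in the blank and AngII libraries. AngII against blank was 0.04 with 1 added and 0.34 with 0.01 added, and vericiguat + AngII against blank was -0.06 and 0.25, so its sign is not settled. The other soluble cyclase subunits on the pathway list, GUCY1A2 among them, were not listed by symbol and so could not be analysed.

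**Figure D4:**
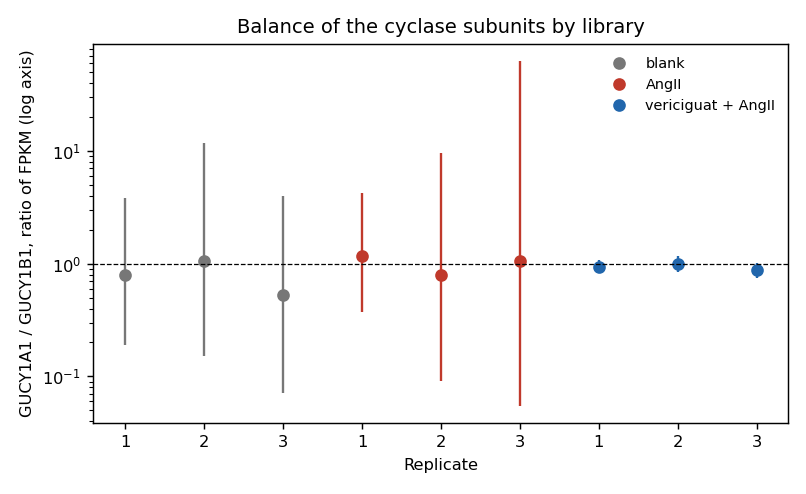
Ratio of GUCY1A1 to GUCY1B1 FPKM in each library, on a log axis, with the 95% interval that counting error of the estimated fragments gives. The dashed line marks equal FPKM. The 3 vericiguat + AngII ratios lie between 0.876 and 0.996 with narrow intervals, and the other intervals all cross the line widely.

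PRKG1, the cGMP-dependent kinase, was the lower of the detected members. It was at 0.047, 0 and 0.011 FPKM in the blank replicates, at 0.013, 0 and 0.016 FPKM in the AngII replicates and at 2.06, 1.52 and 1.74 FPKM in the vericiguat + AngII replicates. The second library of both the blank and the AngII group listed it at 0, and the vericiguat + AngII libraries did not overlap with any other. The estimate gave 5 fragments over the blank group (exact Poisson 95% interval 1.62-11.7), 2 over the AngII group (0.242-7.22) and 357 over the vericiguat + AngII group (321-396). In relative level PRKG1 stood at 1.52, 0 and 0.292, then 0.284, 0 and 0.297, and then 4.82, 3.54 and 4.01. Vericiguat + AngII libraries again lay above the rest, by a pooled ratio to AngII of 21.0 with a 95% interval from 5.76 to 174, and to blank of 8.14 (3.46-25.2).

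By limma on the relative scale PRKG1 was 2.10 (SE 0.312) higher on the log2 scale with vericiguat + AngII than with AngII (limma adjusted p = 0.000216) and 1.78 higher than in the blank group (limma adjusted p = 0.000404). It passed the filter only through the vericiguat + AngII libraries. Both differences were smaller than the median of the entries kept by the filter (2.26 and 2.52) and larger than the median with no filter (1.52 and 1.63), so its place among the entries tested depends on the filter. The pseudocount weighs most on a gene as low as this, and with 10 in place of 1 its differences of 0.47 and 0.42 were no longer called. Under median-ratio scaling they were 0.12 and 0.10, and under quantile normalization 0.14 and -0.02. AngII and blank differed by -0.32 (SE 0.312, limma adjusted p = 0.569). Within its library, with entries at 0 included, PRKG1 stood at percentiles 37.8-64.2, 27.3-57.2 and 53.9-55.9 in the blank, AngII and vericiguat + AngII groups. These overlapped (exact permutation p = 0.754). Among the entries above 0 alone, in the libraries that listed it above 0, it stood at 2.10-13.5, 2.62-2.77 and 37.0-40.7. The vericiguat + AngII libraries lay above all others there.

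Kinase and cyclase could both be measured only in the vericiguat + AngII group. The ratio of PRKG1 to the sum of the subunits was 0.073, 0.0723 and 0.0698 in its replicates, a mean of 0.0717 ± 0.0017 (SD, n = 3). PRKG1 rested on an estimated 99-150 fragments in each of these libraries, and the counting error of this ratio was not computed. In the blank replicates the ratio was 0.19, 0 and 0.0764, and in the AngII replicates 0.0302, 0 and 0.162. The spread in those 6 blank and AngII libraries comes with at most 4 PRKG1 fragments in any of them.

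NPPA, the precursor of atrial natriuretic peptide, was at the limit of detection throughout. Its value was 0 in each of the 3 blank libraries, the AngII replicates held 0, 0 and 0.229 FPKM, and the vericiguat + AngII replicates held 0.191, 0 and 0.449 FPKM. These values correspond to an estimated 0, 1 and 3 fragments over the 3 groups, with exact Poisson upper limits of 3.69, 5.57 and 8.77. The groups overlapped, and an exact permutation test over the 3 groups gave p = 0.464 on the FPKM scale and p = 0.679 on the relative scale. A single NPPA fragment was worth 0.141-0.163 FPKM in the blank libraries and 0.188-0.236 FPKM in the AngII libraries, more than for the other members. With a limit set at 3 fragments for a library listed at 0, up to 0.422-0.489 FPKM could go unseen in the blank group, and no fold is given. The single fragment in the third AngII library placed NPPA at percentile 82.3 there, against 26.8-27.3 in the other AngII libraries and 13.5-42.8 in the vericiguat + AngII libraries.

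Per length, the members in the vericiguat + AngII group ranked GUCY1B1 and GUCY1A1 first, PRKG1 next and NPPA last. The subunits overlapped (10.5-14.5 and 10.5-13.7 FPKM), whereas PRKG1 (1.52-2.06 FPKM) was below both in every library and above NPPA (0-0.449 FPKM). In the blank and AngII groups PRKG1 was also below both subunits in each library.

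The rest of the pathway was sparsely listed by symbol, and other genes of it may stand under a LOC number. A list of 55 genes of nitric oxide, natriuretic peptide and cGMP signalling had 14 listed by symbol, the 4 members and NOS1, NOS3, MME, PDE1B, CNGA2, IRAG1, MYLK, KCNMA1, PLN and TTN. Upstream of the cyclase, NOS1, the neuronal nitric oxide synthase, was at 0 in all blank and AngII libraries and at 0.132, 0.059 and 0.217 FPKM in the vericiguat + AngII replicates. NOS3, the endothelial synthase, was at 0.02, 0 and 0 FPKM in the blank replicates, 0.047, 0.177 and 0 in the AngII replicates and 0.048, 0.08 and 0.169 in the vericiguat + AngII replicates, so the groups overlapped. Neither synthase passed the filter, nor did KCNMA1, a potassium channel that the kinase acts on, with at most 0.1 FPKM in any library.

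The 10 genes that are not members were counted in the fit with no filter, since 7 of them passed the filter and 6 of those 7 only through the vericiguat + AngII libraries. On the relative scale 5 of the 10 were called higher with vericiguat + AngII than with AngII (PDE1B, CNGA2, IRAG1, PLN and TTN), beside 48.9% of the entries tested in that fit. The median log2 difference of the 10 was 2.201, against 1.52 over the entries tested. Against blank 5 of the 10 were called higher (MME, PDE1B, CNGA2, PLN and TTN), beside 52.6%, with a median of 1.56 against 1.63. On the FPKM scale 7 of the 10 were called higher in both comparisons, beside 61.5% and 61.6%. For AngII against blank 0 of the 10 were called on the FPKM scale, where 0.432% of the entries tested were, and 1 (IRAG1, lower) on the relative scale, where 2.88% were. With the filter all 7 genes kept by it were called higher against AngII on the relative scale, MME and MYLK included, which the fit with no filter did not call (limma adjusted p = 0.063 and 0.0598).

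Among the genes that act on peptide or nucleotide, MME, the protease neprilysin that degrades natriuretic peptides, was at 0.116, 0 and 0.105 FPKM in the blank replicates, 0.335, 0.126 and 0.041 in the AngII replicates and 3.06, 7.68 and 5.83 in the vericiguat + AngII replicates. PDE1B, a calcium-dependent phosphodiesterase that hydrolyses cGMP, was at 0.145, 0.079 and 0.099 FPKM, then 0.063, 0.105 and 0.179, and then 4.48, 5.72 and 5.71. CNGA2, a cyclic nucleotide-gated channel subunit known from olfactory neurons, was listed at 0 in all 6 blank and AngII libraries and at 1.87, 3.31 and 3.23 FPKM with vericiguat + AngII. In FPKM each of the 3 was higher in every vericiguat + AngII library than in any other. In relative level MME overlapped, with 7.32 in the first AngII library and 7.18 in the first vericiguat + AngII library, and its relative call against AngII (log2 difference 1.86, limma adjusted p = 0.0428) was lost without the third blank library (limma adjusted p = 0.0546), without AngII replicate 2 or 3 (0.0948 and 0.154) and without any 1 of the vericiguat + AngII libraries (0.0662-0.143). Its call against blank (log2 difference 2.32, limma adjusted p = 0.0161) was lost without the second blank library (0.0527) and without vericiguat + AngII replicate 2 or 3 (0.0718 and 0.0557).

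Below the kinase, IRAG1, the substrate through which it restrains calcium release, was the gene of the list that was called lower with AngII on the relative scale. It was at 0.686, 0.116 and 0.441 FPKM in the blank replicates, 0.039, 0.024 and 0.023 in the AngII replicates and 6.11, 5.42 and 7.20 in the vericiguat + AngII replicates. In relative level this was 22.1, 3.20 and 11.7, then 0.853, 0.417 and 0.427, and then 14.3, 12.6 and 16.6, so the AngII libraries lay below all others while the blank and vericiguat + AngII libraries overlapped. AngII was lower than blank by a log2 difference of -2.79 (SE 0.664, limma adjusted p = 0.0317) in relative level. On the FPKM scale the difference of -0.44 was not called (limma adjusted p = 0.195), and with 0.1 added before the log2 it was -1.81 (limma adjusted p = 0.034). The fragments behind the low AngII values of IRAG1 were not estimated. The relative call was lost without the third blank library (limma adjusted p = 0.138), without any 1 of the AngII libraries (0.0555-0.066) or of the vericiguat + AngII libraries (0.0771-0.08), and in a fit of only the 2 groups (0.188). Of the 3 listed smooth muscle and pericyte markers none was called between these groups on the relative scale, with log2 differences of -3.70 for MYH11 (limma adjusted p = 0.116), -3.74 for ACTA2 (limma adjusted p = 0.128) and 0.91 for DES (limma adjusted p = 0.523). MYH11 and ACTA2 were higher in blank replicates 1 and 3 than in any AngII library, as IRAG1 was, and the part of such cells in the IRAG1 difference was not tested.

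MYLK, the myosin light chain kinase of contractile cells, was at 0.598, 0 and 0.121 FPKM in the blank replicates, 0.077, 0.048 and 0.093 in the AngII replicates and 4.99, 3.88 and 4.90 in the vericiguat + AngII replicates. In relative level the first blank library (19.3) lay above all vericiguat + AngII libraries (9.04-11.7), and the relative call against AngII (log2 difference 2.29, limma adjusted p = 0.0343) was lost without any 1 of the AngII libraries (limma adjusted p = 0.0663-0.0951) or of the vericiguat + AngII libraries (0.083-0.104). The call against blank, missed with all libraries (limma adjusted p = 0.158), was made without the first blank library (log2 difference 2.50, limma adjusted p = 0.00345).

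PLN and TTN, which encode phospholamban, the brake of the cardiac calcium pump, and the sarcomere spring titin, stand on the list as targets of cGMP signalling and are also cardiomyocyte markers. PLN was at 3.29, 5.36 and 6.51 FPKM in the blank replicates, 32.6, 7.57 and 25.8 in the AngII replicates and 1150, 632 and 725 in the vericiguat + AngII replicates. TTN was at 0.044, 0.037 and 0.038, then 0.147, 0.779 and 0.169, and then 67.3, 75.3 and 70.5 FPKM. For both genes the 3 groups did not overlap in FPKM, with AngII above blank. In relative level TTN still did not overlap, whereas PLN did, with 131 in the second AngII library against 106-172 in the blank libraries. Neither gene was called between AngII and blank (limma adjusted p = 0.263 for PLN and 0.499 for TTN on the FPKM scale, and 0.262 and 0.168 on the relative scale).

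The genes whose relative level followed each member most closely were found by Pearson's r on log2(relative level + 1) over the 9 libraries. Compared were the entries with a symbol that had at least 1 FPKM in at least 3 libraries. Of all entries that passed this filter, 8383 of 10908 (76.9%) did so only through the vericiguat + AngII libraries, which favours a high r. For GUCY1A1 they were TUT4 (r = 0.994), ASB3 (0.993) and GUCY1B1 (0.991). For GUCY1B1 they were GUCY1A1 (0.991), FLNA (0.988) and ASB3 (0.988), and for PRKG1 DNAAF9 (0.992), NSD3 (0.988) and TUBGCP4 (0.988). These are descriptions over libraries that fall into 2 levels and share depth and KEF51 share, and of 1084 symbols compared 252, 268 and 275 reached r = 0.9 with GUCY1A1, GUCY1B1 and PRKG1. No symbol reached it with NPPA, where the closest were COP1 (0.662), C17H14orf93 (0.648) and PGER6 (0.63).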

How the data were processed

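RNA was extracted with TRIzol and libraries were made with an Illumina TruSeq kit. The authors filtered reads, compared them with a reference and deposited 1 table of FPKM values per gene and library. The submitters' processing notes name FastQC 0.11.9, Trimmomatic 0.39, HISAT2 2.2.1, featureCounts 2.0.1 and the build OryCun2.0. How depth entered the FPKM is not given in the sources used here. All 9 columns were matched to labelled samples. From the deposited FPKM, relative levels were computed by dividing by the library's sum without the KEF51 entries, whose share differed between groups. Entries at 1 FPKM or more in at least 3 libraries were tested in limma 3.58.1 (R 4.3.3) on log2(value + 1), with all 3 groups in the fit and a mean-variance trend. Benjamini-Hochberg adjustment was made over the entries tested in each fit. Single values were compared by two-sided exact permutation tests. The limma step was tested on data with known answers. Estimated fragments came from the spacing of low FPKM values, with relative library depths found against 2 reference libraries that differed by at most 0.0024 on the log2 scale. Every member's values are given. Other genes were named when they stood on the pathway list, or were among the 3 closest to a member. The members and lists were chosen with earlier results of these data known. The labels give vericiguat before AngII, and the study's text describes the order differently for another assay. Alternatives were other pseudocounts, filters, scalings, fits and left-out libraries.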

Additional observations from a re-analysis of the deposited data

How the results depend on the processing

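Counts of members called did not move by more than 1.5 times under the other settings tried, except that under median-ratio scaling and quantile normalization 0 members were called with vericiguat + AngII, against AngII and against blank, in place of 3. Left-out libraries gave 3 to 3 members in those comparisons and 0 to 0 for AngII against blank. Counts over the entries tested moved more. With no filter the share called on the relative scale fell from 77% to 48.9% against AngII and from 79.2% to 52.6% against blank, and on the FPKM scale from 99.6% to 61.5% and from 99.4% to 61.6%. Calls between vericiguat + AngII and AngII on the relative scale fell from 8390 to 440 (median ratio), 383 (quantile) and 5056 (pseudocount 10), and against blank from 8625 to 1026, 1277 and 5313. Of those called, 8379 of 8390 were higher on the relative scale and 253 of 440 under median-ratio scaling. For AngII against blank the FPKM count of 169 became 969 and 1190 with pseudocounts 0.1 and 0.01, 79 with no filter, 0 with only the compared groups, and 0 to 309 with left-out libraries (0 without the third and 309 without the second blank library), and the relative count of 699 became 149 with pseudocount 10, 0 with only the compared groups, 1101 under quantile normalization and 67 to 2037 with left-out libraries (67 without the third and 2037 without the second blank library). Libraries with equal replicate numbers did not deviate together (correlations of deviations from -0.062 to 0.065). This cannot settle whether they are paired, since the labels do not say how replicates relate and many values rest on few fragments. With the replicate block 3 members stayed called, and the counts over the entries tested for AngII against blank were 7 and 448. MME lost its call against AngII under the block (limma adjusted p = 0.0505). A pseudocount of 0.1 in the exact tests over the 3 groups, chosen after seeing the data, moved no p across 0.05.

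Some differences that were not called changed sign with a left-out library, and their ranges over the left-out libraries follow. For AngII against blank on the FPKM scale they were -0.0123 to 0.10 for GUCY1A1 (negative without AngII replicate 1), -0.0308 to 0.0663 for GUCY1B1 (negative also without blank replicate 2), -0.0272 to 0.00595 for PRKG1, -0.031 to 0.0437 for PDE1B and -0.32 to 0.0186 for MYLK. On the relative scale they were -0.52 to 0.31 for GUCY1A1, -0.70 to 0.0491 for GUCY1B1, -0.61 to 0.0607 for PRKG1, -0.23 to 0.98 for MME and -1.96 to 0.21 for MYLK, and for IRAG1 in vericiguat + AngII against blank -0.15 to 1.08. GUCY1A1 was 0.0195 for AngII against blank with pseudocount 10. Under median-ratio scaling and quantile normalization, vericiguat + AngII against AngII gave -0.0783 and -0.15 for MME and, under the quantile setting, -0.0474 for PDE1B. Against blank they gave -0.17 and -0.36 for PDE1B, -0.83 and -0.88 for IRAG1, -0.19 and -0.15 for MYLK and, under the quantile setting, -0.023 for PRKG1. The cause was not tested.

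The subunit balance, which no test called, moved by less than the spread between replicates. With pseudocounts of 1 and 0.01 it was 0.04 and 0.34 for AngII against blank (0.18 with 0.1), -0.06 and 0.25 for vericiguat + AngII against blank (0.08), a change of sign, and -0.09 and -0.09 against AngII (-0.10). Left-out libraries gave 0.08 to 0.28 for AngII against blank, -0.18 to -0.03 for vericiguat + AngII against AngII and -0.02 to 0.18 against blank, and the replicate block 0.18, -0.10 and 0.08. A filter at a mean of 5 FPKM left no member to test. Few fragments limit GUCY1A1, GUCY1B1 and PRKG1 in the blank and AngII groups and NPPA throughout.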
